A study of Mus musculus with 4 samples.

Results

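Accessible regions away from annotated promoters that were strong in every library numbered 3068, out of 69759 merged regions in the data and 25380 distal regions called in all 4 libraries. The study used ATAC-seq, in which a transposase cuts and tags open DNA, on Lin-Sca1+Kit+ (LSK) cells sorted from mouse bone marrow, a gate of hematopoietic stem cells and early progenitors. It compared 2 libraries from p53+/+ mice (WT 1 and WT 2) with 2 from p53R248W/+ mice (R248W 1 and R248W 2), which carry 1 mutant and 1 wild-type allele of the tumor suppressor gene, to ask how mutant p53 acts on transcription in these cells. Each library was made from 50000 sorted cells. Age, sex, strain and the number of mice per library were not given in the labels, so the spread between libraries of a genotype may be technical.

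Intervals of the 4 libraries that shared at least 1 base were merged. Regions were selected on the measured signal: a merged region was kept when every library had an interval in it, when the authors counted 0 promoters in all of its intervals, and when the highest-bin signal reached 100 in each library. That signal, a whole number for the tallest bin of about 32 bases in an interval, is the authors' value on each library's own scale. Because it chose the regions, their strength is described here and not tested. The kept regions were 12.1% of the 25380 distal regions called in 4 libraries, whereas 48.5% of the 15112 regions with a promoter called in 4 libraries reached the same limit.

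Distal accessible regions include enhancers, which transcription factors bind to act on genes at a distance, as well as insulators bound by CTCF and starts of transcripts missing from an annotation. In blood stem and progenitor cells, factors such as RUNX1, GATA2, TAL1, ERG, FLI1 and MEIS1 are known to bind enhancers in one another's genes. Accessibility alone does not tell these kinds of element apart.

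The 12 regions with the highest lowest-library signal were a mix of sites inside genes, CpG islands and sites near RefSeq starts. Of these, 6 held a CpG island, 7 lay inside a gene by the authors' annotation, 3 had no assigned gene, and 4 had a start from the RefSeq annotation (assembly GRCm38.p6, the same build) within 1 kb of the summit. The strongest (chromosome 7, 25266603 to 25270275) had values of 565, 853, 853 and 549, in the order WT 1, WT 2, R248W 1, R248W 2 kept for all sets of 4 signals here. It had no gene in the authors' table, but its summit was 469 bases from a RefSeq start of Cic, which encodes a transcriptional repressor. WT 2 and R248W 1 were high and WT 1 and R248W 2 low, which is also the order of the libraries' own scales. These raw values therefore cannot compare the genotypes.

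A region of chromosome 1 (92177906 to 92181564), at 582, 818, 859 and 545, also had no assigned gene. Its summit lay in the same bin in all 4 libraries, 139 bases from a RefSeq start of the histone deacetylase gene Hdac4. A region on chromosome 15 (85633878 to 85635722), at 465, 649, 665 and 456, was 4 bases from the start of the non-coding RNA gene D130051D11Rik. Another, inside Iffo2, which encodes an intermediate filament family protein (chromosome 4, 139573659 to 139576153, signals 487, 721, 726 and 434), was 43884 bases from the start the authors used but within 1 kb of another RefSeq start of the same gene. These 4 were thus near a RefSeq start although the authors counted 0 promoters in them.

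The strongest regions without a CpG island lay mostly inside genes. One inside Uggt2, a glucosyltransferase gene of the endoplasmic reticulum, 91850 bases from its start (chromosome 14, 119005459 to 119008610), had 519, 954, 986 and 602. Another, in the mitochondrial pyrophosphatase gene Ppa2 at 29500 bases (chromosome 3, 133338634 to 133341054), had 510, 918, 925 and 607. That in the lipid acyltransferase gene Agpat3 (chromosome 10, 78297209 to 78299448), had 457, 1010, 864 and 583, the highest value of WT 2 among all the regions kept. The order of the libraries was the same in Uggt2 and Ppa2, and in Agpat3 WT 2 exceeded R248W 1.

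Others lay near genes of blood cells. A region 68158 bases into Mef2c, which encodes a transcription factor of lymphoid and myeloid cells (chromosome 13, 83571478 to 83573158), had 441, 838, 886 and 509, and its summit was 1415 bases from another RefSeq start of the gene. A region downstream of the sialidase gene Neu4 and of Pdcd1, which encodes the inhibitory receptor PD-1 (chromosome 1, 94034348 to 94036571), had 433, 754, 809 and 433. The remaining ones were upstream of Foxj2, a forkhead factor gene (chromosome 6, 122809889 to 122812538, signals 532, 853, 872 and 479), and inside C030039L03Rik, 14747 bases from a RefSeq start of the zinc finger gene Zfp607b (chromosome 7, 27688334 to 27690161, signals 430, 713, 721 and 444). Each of the 12 stood at or above percentile 99.2 of its own library's list.

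**Figure D1:**
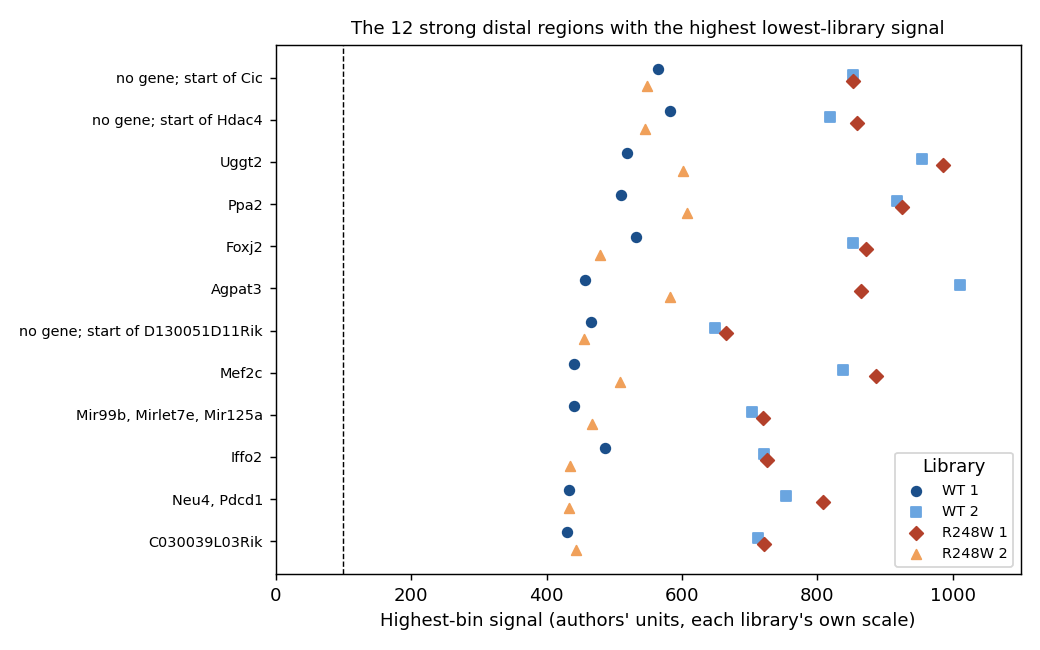
Highest-bin signal (x axis, authors' units on each library's own scale) in the 4 libraries for the 12 regions with the highest lowest-library signal (y axis, named by assigned gene or, where none was assigned, by the nearest RefSeq start). The dashed line marks the limit of 100; WT 1 and R248W 2 lie to the left and WT 2 and R248W 1 to the right in each row, and no point lies below 430.

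One of the 12 lay downstream of a microRNA cluster with a known part in blood stem cells. The region on chromosome 17 (17837017 to 17839240) held a CpG island and had 441, 703, 719 and 467. It was assigned to Mir99b, Mirlet7e and Mir125a, whose starts were 8116, 7952 and 7492 bases away, to Has1, a hyaluronan synthase gene, and to Ncrna00085, in which it lies. miR-125a is known to raise stem cell number when expressed in mouse bone marrow. The 5p products of the 3 microRNAs are shown because they have different seeds, in capitals (bases 2 to 8), with sequences from RefSeq on GRCm38.p6.
mmu-miR-99b-5p: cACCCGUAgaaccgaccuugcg
mmu-let-7e-5p: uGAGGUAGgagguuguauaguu
mmu-miR-125a-5p: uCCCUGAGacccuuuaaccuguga

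In all, 17 microRNA genes were assigned a strong distal region, of 398 microRNA genes with any region (4.27%), against 9.62% of all genes with any region. The hairpins of 3 microRNAs lay inside one, namely Mir8096 (signals 193, 359, 318 and 216), Mir8109 (110, 171, 172 and 112) and Mir7687 in Gse1 (115, 192, 168 and 116).

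Part of the set was not distal by RefSeq. RefSeq starts were available on all chromosomes but 18, where they were not used here, so 2966 regions could be placed. Of these, 322 (10.9%, Wilson 95% interval 9.79 to 12.0%) had a summit within 1 kb of a RefSeq start, against 776 of 21525 other distal regions called in 4 libraries (3.61%) and 77.8% of the strong regions with a promoter. The nearest start belonged to a protein-coding gene in 200 of the 322 and to a long non-coding RNA gene in 122. The gene of that start was among the authors' assigned genes in 133, and 122 had no assigned gene at all. Most regions were far from any start: 46.6% lay 10 to 50 kb away, 12.6% lay 50 to 100 kb away and 9.98% over 100 kb, with a median of 18604 bases against 24285 for the other distal regions. The start table was not complete, as 4.05% of the strong promoter regions also lay over 100 kb from its nearest entry, so these distances are upper limits.

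**Figure D2:**
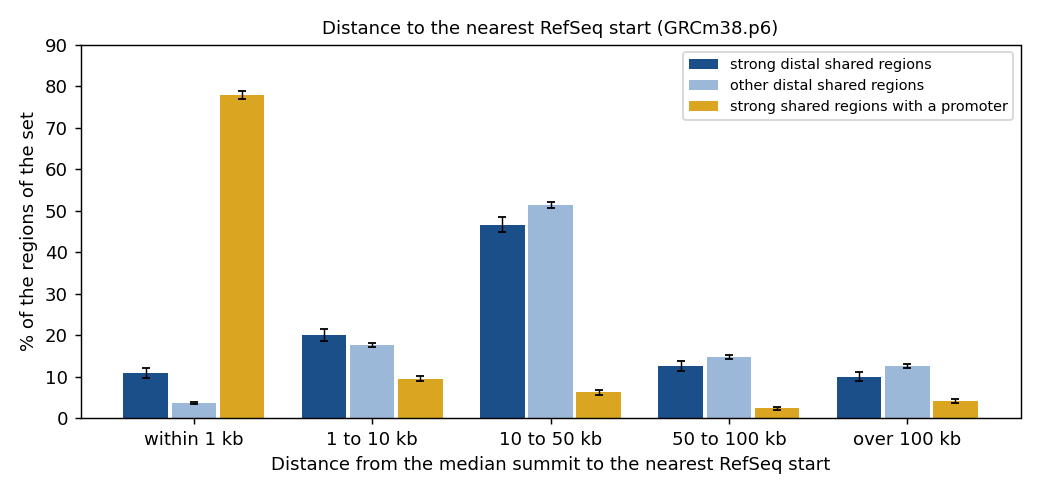
Share of regions (y axis, percent of each set) by distance from the median summit to the nearest RefSeq start (x axis), for the strong distal regions, the other distal regions called in 4 libraries and the strong regions with a promoter; error bars are Wilson 95% intervals. Within 1 kb the shares are 10.9, 3.61 and 77.8%, and from 10 to 50 kb they are 46.6, 51.4 and 6.21%.

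The sequence at such starts is shown for the 5 protein-coding genes whose region had the highest lowest-library signal among those with the median summit inside the 300-base RefSeq window (250 bases before to 50 after the start). Besides Hdac4 and Iffo2, they were Cast, which encodes the calpain inhibitor calpastatin (426, 802, 780 and 465), the predicted gene Gm10509 (422, 698, 692 and 471) and the receptor phosphatase gene Ptprs (418, 616, 592 and 459). Capitals mark matches to the motifs named in the next paragraph.
Hdac4, chr1:92180292-92180591, minus strand: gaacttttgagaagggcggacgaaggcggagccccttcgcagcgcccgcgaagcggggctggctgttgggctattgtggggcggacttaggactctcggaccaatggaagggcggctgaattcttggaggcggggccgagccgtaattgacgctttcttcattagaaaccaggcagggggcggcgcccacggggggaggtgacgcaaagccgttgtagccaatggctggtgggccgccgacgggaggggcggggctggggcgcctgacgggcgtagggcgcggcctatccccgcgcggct
Iffo2, chr4:139574470-139574769, plus strand: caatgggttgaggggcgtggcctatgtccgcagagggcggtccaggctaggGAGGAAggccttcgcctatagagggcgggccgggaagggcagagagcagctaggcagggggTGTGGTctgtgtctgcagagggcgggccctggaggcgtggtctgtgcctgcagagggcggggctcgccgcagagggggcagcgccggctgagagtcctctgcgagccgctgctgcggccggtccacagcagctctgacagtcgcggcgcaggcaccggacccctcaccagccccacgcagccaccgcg
Cast, chr13:74770687-74770986, minus strand: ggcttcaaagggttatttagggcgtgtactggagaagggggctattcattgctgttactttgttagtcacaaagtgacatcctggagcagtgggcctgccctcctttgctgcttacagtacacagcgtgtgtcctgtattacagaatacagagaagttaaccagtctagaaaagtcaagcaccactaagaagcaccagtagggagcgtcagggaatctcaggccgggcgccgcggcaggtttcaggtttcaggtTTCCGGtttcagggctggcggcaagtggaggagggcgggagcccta
Gm10509, chr17:21679627-21679926, plus strand: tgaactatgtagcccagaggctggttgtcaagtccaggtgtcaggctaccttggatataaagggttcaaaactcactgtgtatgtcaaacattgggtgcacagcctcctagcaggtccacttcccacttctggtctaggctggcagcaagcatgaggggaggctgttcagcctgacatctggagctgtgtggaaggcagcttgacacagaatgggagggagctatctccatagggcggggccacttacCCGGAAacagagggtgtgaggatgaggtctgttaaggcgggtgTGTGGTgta
Ptprs, chr17:56462172-56462471, minus strand: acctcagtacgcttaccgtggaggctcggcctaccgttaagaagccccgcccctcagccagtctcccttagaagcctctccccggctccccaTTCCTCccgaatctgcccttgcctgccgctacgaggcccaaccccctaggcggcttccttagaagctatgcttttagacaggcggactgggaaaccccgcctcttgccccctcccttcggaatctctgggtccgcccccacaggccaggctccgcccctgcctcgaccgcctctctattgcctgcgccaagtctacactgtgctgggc

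The windows of Hdac4, Iffo2 and Ptprs held 32, 24 and 18 CG dinucleotides, those of Cast and Gm10509 10 and 3. Over the 230 windows that held the median summit of a strong distal region (214 regions), the median was 16, against 25 in the windows of strong promoter regions and 7 in all 32851 windows. The motifs were searched on both strands as plain letters; both ETS motifs hold the core GGAA, but no single site matches both. The ETS letters CCGGAA were found in 48 of the 230 windows (20.9%, Wilson 95% interval 16.1 to 26.6%), in 36.3% of the windows of strong promoter regions and in 14.9% of all. The RUNX letters TGTGGT were in 17.4, 12.0 and 16.8%, the ETS class letters TTCCTC in 31.3, 24.8 and 28.3%, the E-box CAGCTG in 18.7, 13.2 and 16.3%, and the GATA letters AGATAA in 2.61, 4.04 and 11.2%. The AP-1 letters TGANTCA were in 7.39, 3.57 and 7.81%, the CEBP letters TTGCNNAA in 9.57, 6.97 and 10.8%, and the CTCF motif (letters CCA, then AG after a gap of 2 bases, then GGC after another gap of 2) in 5.22, 3.47 and 2.43%. CCGGAA and the CTCF letters were thus more frequent than over all windows and AGATAA less so, by description only. These windows differ from all windows in CG content, and the part of that difference in the motif shares was not tested. The other strong distal regions have no window here and were not searched.

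CpG islands were present in 395 of the 3068 regions (12.9%, Wilson 95% interval 11.7 to 14.1%), against 729 of 22312 other distal regions (3.27%, 3.04 to 3.51%) and 84.3% of the strong regions with a promoter. A RefSeq start lay within 1 kb in 156 of 384 island regions that could be placed (40.6%), against 166 of 2582 without an island (6.43%). Median signals were 162, 254, 257 and 172 with an island and 145, 249, 245 and 151 without. Island regions were longer, with a median of 2229 bases against 1645. By place they resembled the whole set, with 50.9% inside a gene and 32.2% with no assigned gene. The 5 island regions of highest signal were those at Cic, Hdac4, Foxj2, D130051D11Rik and the microRNA cluster. When strong regions with all summits over 10 kb from every available start were taken instead, the island share was 7.33%.

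By the authors' assignment, strong distal regions had no gene somewhat less often than the other distal regions, and their shares inside, upstream only or downstream only of a gene differed by less than 2 percentage points. They were inside a gene in 1607 cases (52.4%, Wilson 95% interval 50.6 to 54.1%, against 51.2% of the other distal regions), downstream only in 309 (10.1% against 9.18%) and upstream only in 66 (2.15% against 1.96%). Another 35 were upstream of one gene and downstream of another (1.14%, 0.821 to 1.58%, against 0.677%, 0.577 to 0.793%). Several genes were assigned to 9.97%, against 7.99%. No gene was assigned to 1051 (34.3%, 32.6 to 36.0%, against 37.0%, 36.4 to 37.6%). Among pairs of a region and a gene it lay in, the median distance from the gene's start was 33206 bases. Promoter regions of the same strength, at 36.1% inside a gene and 44.2% upstream only, were placed differently, as the rule itself requires.

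Intervals were longer and summits more alike between libraries than in weaker distal regions. The median interval length was 1445, 1531, 1568 and 1429 bases, against 1029, 1103, 1111 and 1029 in the other distal regions and 1856, 1918, 1985 and 1808 in strong promoter regions. The summits of the 4 libraries lay within 32 bases of one another in 64.8% of the strong distal regions, in 35.9% of the other distal regions and in 61.1% of the strong promoter regions. All 4 libraries had the summit in the same bin in 946 regions (30.8%), and summits lay over 200 bases apart in 65 (2.12%). Length and summit come from the same intervals as the signal that chose the regions, so these values describe the set only. Each library had 1 interval in 2997 of the regions, and the rest held 5 to 8 intervals in all.

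The longest regions were not the strongest. The longest, 6964 bases inside Gse1, held 2 CpG islands and had 115, 192, 168 and 116. The next, 6768 bases in the X-linked gene Tsc22d3, which encodes the glucocorticoid-induced protein GILZ, had 187, 306, 318 and 171, with a RefSeq start of the gene 564 bases from the summit. A region of 6576 bases on chromosome 11 (3099859 to 3106435) with no assigned gene had 280, 557, 548 and 344, and its summits lay up to 1568 bases apart between libraries. Regions inside Arhgef10 (6543 bases, signals 209, 374, 341 and 208) and downstream of Zfp213 and Casp16 (6244 bases, signals 114, 178, 221 and 104) completed the 5.

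Stem cell regulators were the list with the most genes that had a strong distal region, 12 of 30 (40.0%), against 9.62% of all 20811 genes with any region. Among genes with a distal region called in 4 libraries, they were 12 of 22 on the list, against 21.8% of all 9182. Many of these genes have several distal regions, with a median of 2 per gene against 0 over all genes. Counted by region, 16 of the 99 distal regions assigned to the list were strong (16.2%, Wilson 95% interval 10.2 to 24.7%), an interval that holds the 12.1% of all distal regions. The 12 genes encode hematopoietic transcription factors or their partners in most cases (Runx1, Cbfa2t3, Meis1, Etv6, Gata2, Fli1, Ikzf1, Ldb1, Tal1, Lmo2 and Erg), the remaining one being Zfp36l2, which encodes an RNA-binding protein of early progenitors.

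Runx1, a master regulator of blood stem cell emergence, had 2 strong regions among 8 distal ones. The one 24242 bases into the gene (chromosome 16, 92799843 to 92802775) had 231, 403, 386 and 245. The other, 205202 bases in (92620239 to 92622816), had 116, 166, 215 and 139. The intron that follows the distal Runx1 promoter is known to hold an enhancer active in blood stem cells. In the stronger region WT 2 was highest, and in the weaker one R248W 1, with WT 1 lowest in both.

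Meis1, a homeobox cofactor gene of stem cells, had 2 of 7. The region 93913 bases in (chromosome 11, 18924197 to 18926006) had 236, 369, 377 and 211, and that at 48857 bases (18969340 to 18970943) had 197, 318, 340 and 193. Both had R248W 2 lowest and R248W 1 highest by raw signal, on scales that differ between libraries. Gata2, a zinc finger factor gene of stem cells and mast cells, had both of its distal regions in the set. The one 4504 bases into the gene (chromosome 6, 88201954 to 88204100) had 164, 244, 236 and 160. The one 8904 bases upstream, with a CpG island (88189025 to 88190628), had 121, 133, 127 and 108, so both had R248W 2 lowest and WT 2 highest.

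The remaining stem cell genes had signals over a similar range. Cbfa2t3, encoding the corepressor ETO2, had 217, 357, 387 and 212 at 33701 bases (chromosome 8, 122664575 to 122667856). Etv6, an ETS repressor gene needed by adult stem cells, had 168, 306, 260 and 178 at its stronger region of 2 (chromosome 6, 134064380 to 134065981). The ETS factor genes Fli1 (131, 209, 182 and 150) and Erg (108, 169, 185 and 133), the helix-loop-helix factor gene Tal1 (119, 184, 185 and 130) and the bridging factor gene Lmo2 (118, 181, 204 and 129) were nearer to the limit. Ldb1, which encodes the adaptor of the TAL1 complex, had 127, 227, 234 and 163, but that summit was 27 bases from a RefSeq start of the gene. WT 1 or R248W 2 was the lowest library in each of these.

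Receptors and surface markers of early progenitors form another list. Flt3, the cytokine receptor gene of lymphoid-primed progenitors, had 3 strong regions among 5 distal ones, the highest of them 33929 bases in (chromosome 5, 147365725 to 147367264) at 251, 422, 413 and 195. Cd34, a sialomucin gene of progenitors, had 193, 273, 264 and 124 at 4859 bases (chromosome 1, 194942514 to 194944387). Esam, an adhesion molecule gene of stem cells, had 113, 134, 151 and 104 at 16743 bases downstream of its start, in a region that lies inside Nrgn and is also assigned to Vsig2. These 3 were the members of the list of 20 receptors and surface markers with a strong distal region (15.0% of genes, and 5 of 23 distal regions, 21.7%). Kit and Ly6a, which encode the 2 antigens of the gate, Kit and Sca-1, had no distal region called in 4 libraries, and their highest regions of any kind had 143, 277, 312 and 172 and 85, 141, 126 and 78. Elements beyond the reach of the authors' gene assignment are not counted for any gene.

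Genes of other lineages fell on either side of the background. Lymphoid progenitor genes had 6 of 20 (30.0%, and 9 of 44 regions, 20.5%). Lef1, a Wnt pathway factor gene, led them with 223, 564, 490 and 267 at 98201 bases (chromosome 3, 131207548 to 131209525). Flt3 is also on this list, and the others were Notch1 (194, 334, 352 and 189, upstream by 9714 bases), Ets1 (185, 317, 292 and 146), Ikzf1 (139, 256, 237 and 131) and Satb1 (121, 178, 200 and 106). Lef1 was lowest in WT 1, and the other genes in R248W 2.

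Granulocyte and monocyte genes had 4 of 20 (20.0%, and 5 of 15 regions, 33.3%, 15.2 to 58.3%). They were Ltf, the lactoferrin gene (185, 306, 357 and 215), Cebpb, a factor gene of emergency granulopoiesis (141, 209, 222 and 128), the myeloperoxidase gene Mpo (126, 192, 245 and 131) and the Fc receptor gene Fcgr3 (110, 182, 167 and 103). All 4 were downstream of the gene, and those of Ltf, Cebpb and Mpo were also assigned to Ccrl2, A530013C23Rik and Lpo. With the nearest RefSeq start in place of the authors' assignment, the count of 4 genes was 2. Spi1, the PU.1 gene, and Cebpa had none: their highest distal regions had 85, 118, 119 and 81 and 77, 162, 136 and 95.

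Erythroid and megakaryocyte genes had 1 of 17 with any region, Vwf, the von Willebrand factor gene (174, 229, 302 and 147), which is also on the list of stromal and endothelial markers. Without WT 1 the count was 4. Markers of mature lymphocytes (T, NK and B cells) had 0 of 18 (0 of 10 distal regions, Wilson upper bound 27.8%). Mast cell, basophil and eosinophil markers had 1 of 13, Gata2 itself. Without R248W 2 these counts were 1 and 2. Stromal and endothelial markers had 3 of 20, Runx2, the bone factor gene (237, 415, 378 and 196 at 160109 bases), the VEGF receptor gene Kdr (156, 260, 203 and 155) and Vwf, or 3 of 34 distal regions (8.82%). Liver, neuron and muscle genes had 1 of 17, Mbp, the myelin basic protein gene, at 341, 630, 638 and 376, higher than any stem cell gene on the lists. By markers of any kind of region, signals summed over 8 LSK genes were 1463, 2456, 2488 and 1437, while Cd8a, Fcer1a and Hbb-bs had no region in any library and Cd3e had one in WT 2 alone (20). Other markers of these types were high: the B cell gene Cd79a had 359, 580, 532 and 339, the T cell genes Lck and Cd3d 270, 388, 470 and 264 and 171, 247, 260 and 164, and the erythroid factor gene Klf1 206 in WT 1 to 369 in R248W 1. The same sums were 523, 835, 904 and 525 over 5 mature T cell genes, 566, 929, 928 and 552 over 4 B cell genes, 277, 458, 493 and 325 over 5 erythroid genes and 291, 670, 689 and 425 over 5 granulocyte genes. Over 4 mast cell and basophil genes they were 115, 147, 141 and 98, and over 4 stromal and endothelial genes 335, 452, 568 and 337. Because the numbers of genes differ, these sums cannot be set against one another. Medians per gene were 178, 300, 320 and 172 for the LSK genes, the highest in every library. They were 82, 180, 174 and 97 for the T cell genes and 90, 147, 168 and 86.5 for the B cell genes. Of these 27 genes, Ltf alone had a strong distal region, against 4 of the 8 LSK genes (Cd34, Flt3, Meis1 and Gata2). Whether other cells in the sort add to any region was not tested.

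Early-response genes had the highest share of strong regions among the 13 lists. It was 5 of the 7 distal regions assigned to them (71.4%, Wilson 95% interval 35.9 to 91.8%), against 12.1% of all distal regions. By gene it was 5 of 19 (26.3%), against 9.62% of all genes with any region. The share rests on 7 regions, and the lists were chosen with earlier results of these data known. Fos, an AP-1 subunit gene, had 245, 288, 353 and 240 at 12147 bases downstream of its start (chromosome 12, 85485072 to 85488558, with 2 CpG islands). Fosb, another AP-1 subunit gene, had 243, 306, 435 and 215 at 10051 bases upstream (chromosome 7, 19318107 to 19320972, with 1 CpG island). Ier2, with 1 CpG island, had 176, 293, 249 and 191. Ier3 had 168, 272, 266 and 160 in a region inside Flot1 and also assigned to Tubb5. The nuclear receptor gene Nr4a2, with 2 CpG islands, had 122, 200, 191 and 131. Of all 1124 distal regions with a CpG island called in 4 libraries, 395 were strong. The part of islands in the share of this list was not tested. The genotypes overlapped at all 5, both by raw signal and by percentile of each library's own list. The number of such genes was 3 when the intervals of every pair of libraries had to overlap by 50% reciprocally, and 2 with all summits over 10 kb from every start.

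Direct p53 target genes had strong distal regions at 4 of 30 (13.3%, and 4 of 25 distal regions, 16.0%, 6.40 to 34.7%), near the background of 9.62% by gene and 12.1% by region. Sesn1, encoding the stress sensor sestrin 1, had 220, 277, 332 and 217 at 76850 bases from the start the authors used, but 15 bases from another RefSeq start of the gene. Xpc, a nucleotide excision repair gene, had 148, 276, 285 and 158 at 9680 bases (chromosome 6, 91505526 to 91507096). Apaf1, the apoptosome gene, had 114 and 193 in the WT libraries and 138 in R248W 2 at 50135 bases, with R248W 1 above all 3, and Bax, the apoptosis effector gene, had 104, 133, 146 and 104 at 15410 bases downstream of its start, inside Gys1 and also assigned to Ftl1. The count of 4 was 2 with the best 20% of each list, 1 at a limit of 150 and 1 with all summits over 10 kb from every start. The raw signals of the genotypes overlapped at all 4 genes, on scales that differ between libraries. By percentile of each library's own list, Bax had 76.6 and 76.7 in WT and 78.4 and 77.6 in R248W, without overlap. By the same percentile the genotypes overlapped at Xpc and Apaf1 and met at 93.1 at Sesn1. By rank among all 40492 regions called in 4 libraries, both R248W values exceeded both WT values in 16.0% and fell below them in 15.6%. Regions without overlap were thus common. Single regions were not tested. Trp53 and Cdkn1a had no distal region called in 4 libraries.

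Inflammatory and NF-kappaB genes had 3 of 20 (15.0%, and 3 of 17 regions, 17.6%), or 5 without WT 1. Nfkbiz, encoding an atypical nuclear inhibitor of NF-kappaB (263, 423, 438 and 259), was followed by the chemokine gene Ccl3 (170, 399, 371 and 218) and the subunit gene Rela (109, 137, 151 and 138). Cell cycle and Myc genes had 1 of 20, the cyclin gene Ccnd3, with 3 strong regions among 6 distal ones (highest 184, 290, 291 and 182). Myc had no distal region called in 4 libraries within the authors' assignment.

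**Figure D3:**
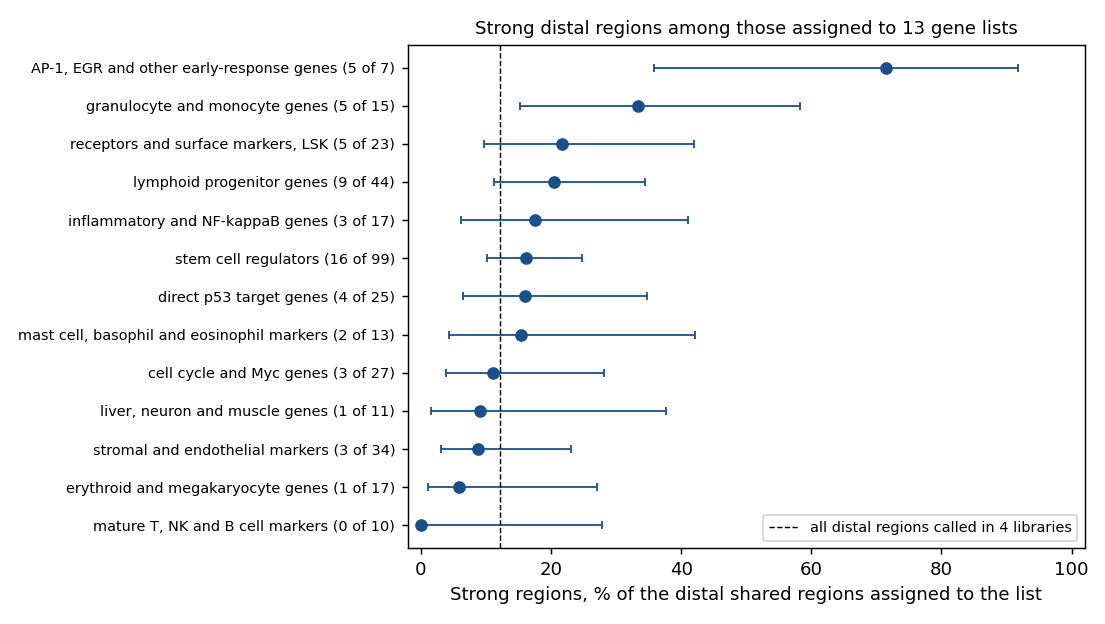
Share of the distal regions called in 4 libraries that were strong (x axis, percent), for the regions assigned to each of 13 gene lists (y axis, with counts); bars are Wilson 95% intervals, the dashed line is the 12.1% of all distal regions. Early-response genes (5 of 7) and granulocyte and monocyte genes (5 of 15) have intervals wholly above the line, and mature lymphocyte markers have 0 of 10.

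Some genes held many strong distal regions. Of the 2001 genes with at least 1, 1697 had 1, 231 had 2, 56 had 3, 10 had 4, 6 had 5 and 1 had 6. Arid1b, which encodes a subunit of the BAF chromatin remodeler, had 6 among 18 distal regions over a gene of 353 kb, with signals of 115 to 197 in WT 1, 148 to 304 in WT 2, 180 to 326 in R248W 1 and 113 to 207 in R248W 2. Stk10, the gene of a lymphocyte-oriented kinase, had 5 among 6 over 91.3 kb, with 122 to 292, 287 to 507, 285 to 477 and 176 to 279. All distal regions of Stk10 but 1 were thus strong. Med12l, a Mediator subunit gene, had 5 of 9, Rgs3, a regulator of G protein signaling, 5 of 11, and the sodium-calcium exchanger gene Slc8a1 5 of 14. The factor gene Nfia (5 of 17) and the phosphodiesterase gene Pde4d (5 of 30) had as many and were behind in share.

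Of the strong distal regions, 52.0% lay over 100 kb from the nearest other one and 11.1% within 10 kb. Gaps and clusters were not computed for other sets, so whether these regions lie closer or farther apart than others was not tested. The median gap to the nearest other one was 110.0 kb, and the median gap to the nearest strong promoter region was 64.7 kb, with 9.39% within 10 kb of such a promoter region. When those within 12500 bases of each other were joined, the stitching distance commonly used for super-enhancers, 380 of the 3068 (12.4%) fell into 179 clusters, 159 of 2 regions, 18 of 3 and 2 of 4. With joins of 25 and 50 kb there were 302 and 444 clusters.

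One of the 2 clusters of 4 spanned 25.6 kb within Pik3ap1, an adaptor gene for PI3 kinase in B cells and myeloid cells (chromosome 19, 41320626 to 41346187). Its regions had 150, 259, 231 and 201, then 134, 216, 191 and 143, then 199, 303, 290 and 192, and last 128, 188, 207 and 138. The other spanned 25.8 kb between Runx3, a Runt-family factor gene of lymphocytes and blood progenitors, and the chloride channel gene Clic4 (chromosome 4, 135181392 to 135207188). Its regions had 116, 233, 234 and 158, then 141, 230, 192 and 134, then 140, 236, 229 and 139, and last 185, 278, 315 and 161. The region at 199 in WT 1 was the strongest at Pik3ap1, and that at 185 at Runx3 and Clic4.

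**Figure D4:**
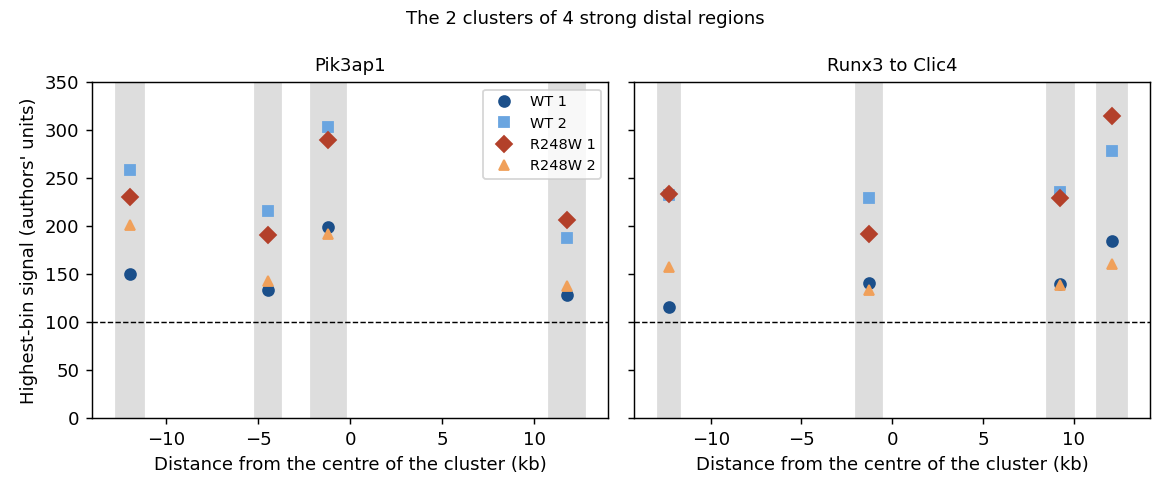
Highest-bin signal (y axis, authors' units) of the 4 libraries at the regions of the Pik3ap1 cluster and of the Runx3 to Clic4 cluster, against distance from the centre of the cluster (x axis, kb); grey bands show the extent of each region and the dashed line the limit of 100. All values lie between 116 and 315, with WT 1 and R248W 2 below WT 2 and R248W 1 at every region.

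The 3 clusters of 3 regions with the highest sum of lowest-library signals held mostly regions without an assigned gene. One on chromosome 8 (72267622 to 72296799) had lowest-library signals of 262, 336 and 180, one on chromosome 1 near Ptma, the prothymosin gene (86486744 to 86510192), had 276, 207 and 168, and one on chromosome 13 near Tifab, a gene deleted in some human myeloid neoplasms (56150960 to 56174054), had 112, 245 and 161.

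By chromosome, the strong share of distal regions ran from 9.92% on chromosome 10 to 14.6% on chromosome 17 among autosomes (median 12.2%). On X, 37 of 431 distal regions were strong (8.58%, Wilson 95% interval 6.29 to 11.6%), against 3029 of 24945 on autosomes (12.1%, 11.7 to 12.6%). Strong regions with a promoter were also fewer on X, at 40.1% of those called in 4 libraries against 48.8%. The median signals of all distal regions on X were 40, 69, 68 and 45, against 48, 78, 77 and 50 on autosomes, so X was lower in every library. The 3 highest on X had no assigned gene (75673244 to 75675083, signals 356, 611, 579 and 409), lay downstream of Eif2s3x, a translation initiation gene that escapes X inactivation (238, 505, 416 and 305), or lay in the synaptophysin gene Syp (225, 364, 401 and 220). On Y, 2 of 4 were strong, a region assigned to Mid1 and G530011O06Rik (90737148 to 90743309, signals 278, 343, 298 and 264) and one in Erdr1 (90798434 to 90802607, signals 113, 207, 135 and 198). At Erdr1, WT 1 and R248W 1 were low and WT 2 and R248W 2 high. Mid1 and Erdr1 belong to the pseudoautosomal region that X and Y share, so reads of the 2 chromosomes may not be told apart there.

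**Figure D5:**
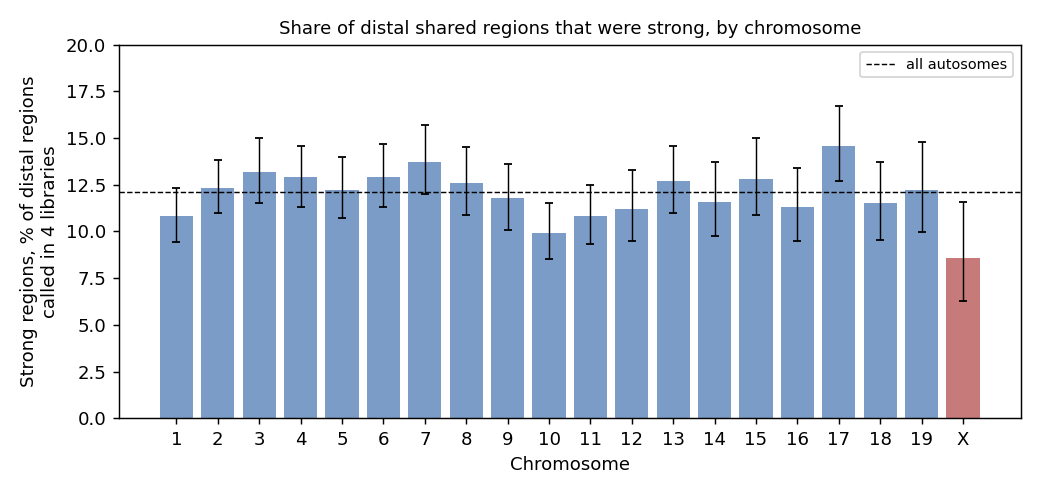
Strong regions as a percentage of the distal regions called in 4 libraries (y axis) on each autosome and X (x axis); bars are shares, error bars Wilson 95% intervals and the dashed line the share over all autosomes, 12.1%. X has 8.58%, below every autosome, and chromosome 10 has the lowest autosomal share at 9.92%.

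Library scale differed more than genotype. The median signal of the strong distal regions was 147 and 249 in the WT libraries and 247 and 154 in the R248W libraries, so the limit of 100 acted mainly through WT 1 and R248W 2. WT 1 was the lowest library alone in 1803 regions and R248W 2 in 1206, against 6 for WT 2 and 0 for R248W 1. The limit stood at percentile 75.3 and 76.5 of the lists of WT 1 and R248W 2, and it left 3721 and 4048 distal intervals at or above it in these, against 9221 in WT 2 and 8982 in R248W 1. Of those, 82.9, 33.5, 34.3 and 76.2% in the usual order of libraries lay in the kept regions.

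The median interval length in the kept regions was 1488 ± 60.8 bases in WT libraries against 1498 ± 98.3 bases in R248W libraries (mean ± SD, n = 2 of each genotype), a difference smaller than the SD of either genotype. An exact permutation test of the length (two-sided) gave p = 1, but with 2 libraries against 2 it cannot go below 0.333. Lengths were also shorter in WT 1 and R248W 2, the libraries of low signal, 1 in each genotype. The test therefore cannot decide whether length differs by genotype. The median ratio of mean-bin to highest-bin signal was 27.2 ± 1.81% in WT and 27.1 ± 2.11% in R248W, given as a description because the highest-bin signal chose the regions. The share of a library's distal intervals that lay in the kept regions, 8.60 ± 2.19% and 8.20 ± 1.25%, is also a description, since nearly the same number of intervals is divided by the length of each library's list.

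Ranking the 3068 regions within each library removes a difference in scale that keeps the order of regions. It leaves in place the cut at 100, which acted mainly through WT 1 and R248W 2. Both R248W ranks were above both WT ranks in 453 regions (14.8%) and below both in 483 (15.7%). The same counts over all 40492 regions called in 4 libraries, ranked among themselves, were 16.0% and 15.6%, so the share among strong distal regions was near the background. Correlations of log2 signal over the 3068 regions ran from 0.856 for WT 1 with R248W 2 to 0.926 for WT 2 with R248W 1, with 0.876 for the WT pair and 0.885 for the R248W pair, as a description over regions that share libraries and were cut at 100.

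The regions with the widest gaps between the genotypes' ranks were chosen after their values were seen. With R248W above WT they were downstream of Sp8, a zinc finger factor gene of development (107, 195, 258 and 170), in Zeb1, which encodes a repressor active in lymphoid and stem cells (107, 185, 234 and 149), and in the RNA-binding protein gene Rbpms (102, 155, 214 and 145). At Sp8 the ranks, from 0 for the weakest to 100 for the strongest region, were 8.74 and 19.4 in WT and 55.2 and 61.7 in R248W. With R248W below WT they had no assigned gene, on chromosome 8 (91159589 to 91161113, signals 148, 269, 190 and 105), chromosome 10 (44029111 to 44030444, signals 146, 252, 179 and 123) and chromosome 9 (56533415 to 56534843, signals 154, 259, 204 and 121). On chromosome 8 the ranks were 51.0 and 58.4 in WT and 17.7 and 5.12 in R248W. Single regions were not tested, because how the signal was scaled between libraries is not stated.

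The limit itself cut through a continuous range. There were 62 regions with a lowest signal of 100 and 62 distal regions at 99. Just inside were regions downstream of Serpinb11 (100, 198, 162 and 122), in LOC101056010 (105, 203, 208 and 100) and with no gene on chromosome 1 (100, 251, 211 and 129). Just outside were regions in Mgat4a (123, 177, 177 and 99) and Lpgat1 (109, 161, 181 and 99), and one with no gene on chromosome 10 (99, 239, 185 and 120). Within 10 units there were 547 regions above the limit and 712 below it.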

How the data were processed

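Intervals of 4 ATAC-seq libraries were deposited by the authors in 1 table of 220733 rows, each row naming its library. The submitters' processing notes name MACS 1.4.2 and the mm10 build. The aligner, filters, read-end shifting, depth and signal scaling were not given in the sources used here. Depth is therefore unknown, and no interval or limit that needs it is printed. Per the file headers, the deposited signal values are the highest-bin and mean-bin signal of each interval. Starts are printed as the file gives them and may be counted from 0, since length equals end minus start.

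Intervals were merged over libraries, and regions were chosen as the report states, in python 3.11.15 with pandas 2.3.3 and scipy 1.17.1. Merging and selection were tested on simulated data. Genes, CpG islands and places are the authors'; the gene's place and distance are those of the strongest interval. List genes were matched to the file, 3 of the 250 found by an older symbol. RefSeq starts came from GRCm38.p6, without chromosome 18; no genome sequence was used here, so motifs were read in RefSeq promoter windows, not at all summits as planned. Shares carry Wilson 95% intervals, which cover counting error only and take regions as units. Median interval length was compared by an exact permutation test; the planned tests of the other 2 whole-library measures are not reported, since those measures rest on the selection.

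Members and lists were chosen with earlier results of these data known. Regions named were the 12 highest by lowest-library signal, up to 4 per list (others complete a small count), the 5 longest, the 5 highest with a CpG island, 3 on X, those at the limit, the 5 clusters and 5 genes with most regions, and 12 genes whatever their values; the Y regions and the rank examples were added after their values were seen. Alternatives were other limits, the best 20% of each list, a reciprocal overlap of 50%, a 10 kb distance, each library left out, X and Y left out, other joins, and the nearest RefSeq start.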

Additional observations from a re-analysis of the deposited data

How the results depend on the processing

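The 3068 strong distal regions became 4761 at a limit of 80 and 1268 at 150, with CpG island shares of 10.6% and 16.3%. With all summits over 10 kb from every available start, in place of the promoter count, there were 2061. Of these, 61.8% had an assigned gene and 7.33% a CpG island. On chromosome 18 only the authors' starts were available for that distance. List genes with such a region, 40 of 250, were 21 at a limit of 150, 25 at 10 kb and 33 by the nearest RefSeq start alone. By that start, stem cell regulators went from 12 to 8. Clusters, 179 in the main count, numbered 395 and 44 at limits of 80 and 150, 111 with the best 20% of each list (2216 regions), 105 at 10 kb, and 302 and 444 with joins of 25 and 50 kb. Leaving out each library in turn gave 3069 to 3920 regions and CpG island shares of 11.4% to 12.9%. Of 143 recomputed counts of single lists, 116 stayed within 1.5 times the main count and 27 did not. Among the latter, without WT 1 the erythroid list went from 1 to 4 and the inflammatory list from 3 to 5, and at a limit of 150 stem cell regulators went from 12 to 6, lymphoid genes from 6 to 3 and granulocyte genes from 4 to 1. The cause of these changes was not tested.

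Without 1 library, as values with no test, the R248W minus WT difference ran from -59.2 to 78 bases for interval length, from -1.52 to 1.43 percentage points for the ratio of mean-bin to highest-bin signal, and from -1.94 to 1.47 points for the share of distal intervals. All 3 turned direction without WT 1 or without R248W 1. With the replicate block, pairing libraries of the same number, the 3 differences stayed at 10.5 bases, -0.0605 and -0.397 points (for the length, exact sign-flip test, p = 1, smallest possible 0.5). Deviations from the genotype mean in libraries of the same number had a correlation of -0.0487 over the regions. That value takes regions as units, so it cannot tell whether libraries of the same number were prepared together. A region missing here can be accessible below the limit, and unknown depth bounds every count.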
